A study of Homo sapiens with 12 samples.

Results

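The gene set described here holds 66 protein-coding genes that were on in the clone LmnB1_6 and low in 3 sister clones of hTERT RPE-1, a telomerase-immortalised human line from the retinal pigment epithelium. A gene entered the set when its mean over the 3 libraries of a clone, in counts per 1000000 of the library total (CPM), was at least 1 in LmnB1_6 and under 0.5 in each of LmnB1_16, mCherry_3 and mCherry_4, with HOX and clustered protocadherin genes left out. The rule took 66 of 19907 protein-coding genes among 60708 genes in the files. The levels in LmnB1_6 and in the other clones chose the genes, so nothing is read from the contrast between them.

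The cells overexpressed lamin B1 (clones LmnB1_6 and LmnB1_16) or the fluorescent protein mCherry (control clones mCherry_3 and mCherry_4). All 4 groups, controls included, received 0.05 ug/mL doxycycline for 24 hours and grew in medium with hygromycin B. For each clone 3 mRNA libraries, labelled as biological replicates, were sequenced. A construct is represented by 2 clones, each a single line. P-values thus measure the spread between libraries of these lines, which may in part be technical. Between a lamin clone and a control clone, a difference of line cannot be told apart from the effect of the construct. LmnB1_6 and LmnB1_16 carry the same construct, as do mCherry_3 and mCherry_4.

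LMNB1, the gene on the construct, stood at 3907, 4091 and 3849 CPM in LmnB1_6 and 3291, 3593 and 3117 CPM in LmnB1_16, against 80.9, 97.0 and 92.0 CPM in mCherry_3 and 154, 160 and 150 CPM in mCherry_4. LMNB1 was thus high in both lamin clones, and no library went against its label. Library totals in estimated counts ran from 20.6 M to 29.5 M (M, 1000000 counts). Markers of the labelled tissue were mixed: RPE65 and TYR, of the visual cycle and of pigment synthesis, were listed at 0 in every library, while the regulators MITF and OTX2 were present in 3 clones and at or near 0 in LmnB1_6.

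Many of the genes in the set are known from development and differentiated epithelia. Wnt proteins signal through receptors that stabilise beta-catenin or steer planar cell polarity, and secreted antagonists such as NOTUM and FRZB limit their reach. Filaggrin and its relatives are made late in skin differentiation, where they pack keratin filaments, and SALL4 and SOX2 are transcription factors of early embryonic and neural progenitor cells. Cells of the retinal pigment epithelium normally depend on MITF and OTX2.

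The 66 genes had a median of 2.65 CPM in LmnB1_6 and 0.107 CPM over the 9 libraries of the other clones. Their summed level was 282.3 to 316.8 CPM in the libraries of LmnB1_6, against 6.987 to 8.713 CPM in LmnB1_16, 8.509 to 10.01 CPM in mCherry_3 and 8.904 to 9.816 CPM in mCherry_4. In LmnB1_6, 53 of the genes reached 1 CPM in all 3 libraries, 10 in 2 and 3 in 1. For 65 of the 66, every LmnB1_6 library lay above all 9 other libraries, the exception being ENSG00000258064. The rule largely fixes this and no share over all genes was counted, so nothing is read from it. For PPL the margin was below the digits given, with 0.629 CPM in both LmnB1_6 replicate 1 and mCherry_3 replicate 3. The 65 genes that passed the filter on low counts, mostly through their level in LmnB1_6, all had an adjusted p under 0.05 for LmnB1_6 against the mean of the other clones in edgeR, where 46% of all tested genes did, and nothing is read from this since the rule used that contrast. The fold over the other clones had a median of 27.1 and ran from 2.94 to 397 among the 61 genes with over 3 counts in the other libraries, and the median was 27.7 with the other 5 at the bound that 3 counts over the 9 libraries allow.

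**Figure D1:**
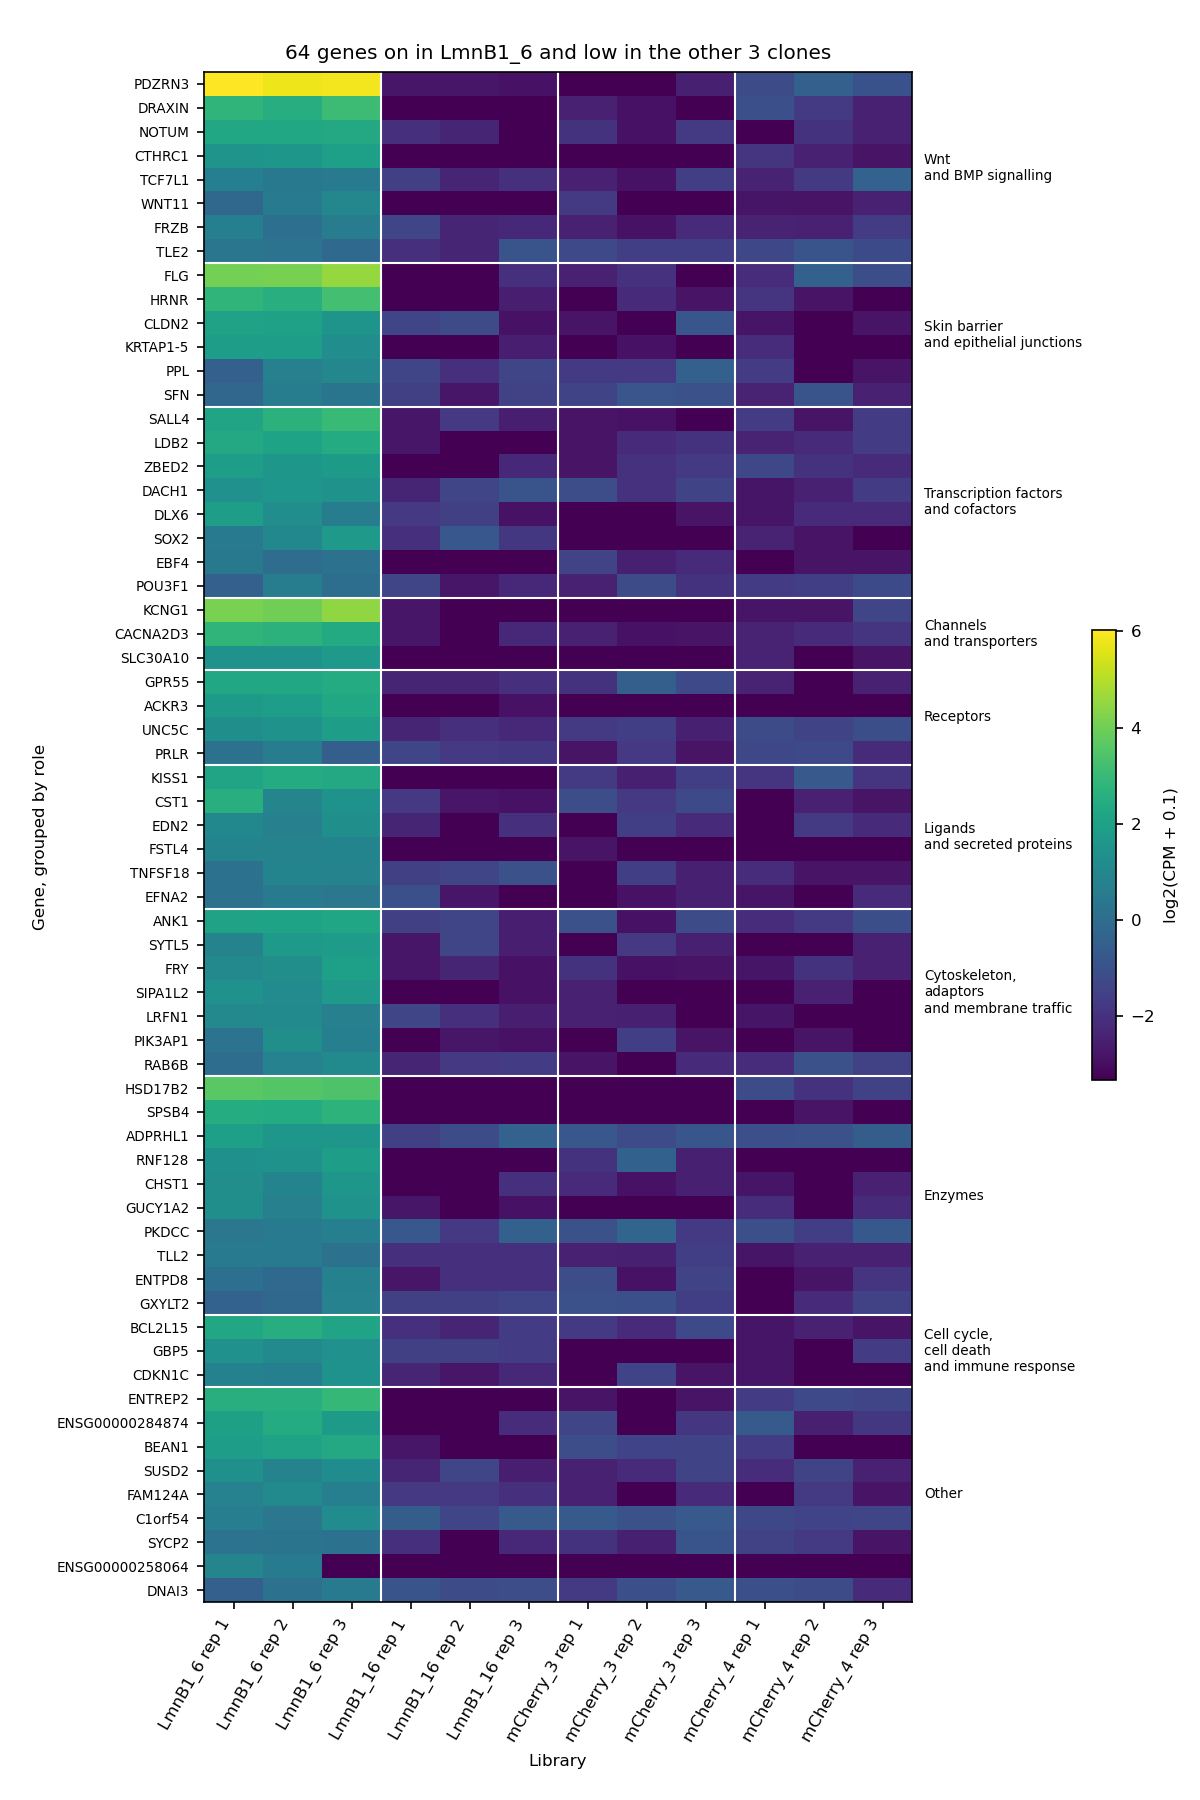
Level of 64 of the genes (rows, grouped by known role) in the 12 libraries (columns, 3 per clone), coloured by log2(CPM + 0.1). In each row the 3 LmnB1_6 columns are lighter than the 9 other columns, with 2 exceptions. ENSG00000258064 is at 0 in LmnB1_6 replicate 3, and PPL has 0.629 CPM in both LmnB1_6 replicate 1 and mCherry_3 replicate 3.

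Each clone had genes of its own by the same rule. With the clones exchanged, 17 genes were at 1 CPM or more in LmnB1_16 alone, 45 in mCherry_3 alone and 11 in mCherry_4 alone, while 113 were under 0.5 CPM in LmnB1_6 and at 1 or more in each other clone. At 5 CPM or more in the clone that was on, the counts were 12 for LmnB1_6, 2 for LmnB1_16, 2 for mCherry_3 and 1 for mCherry_4. A further 17 genes that are not annotated as protein coding met the rule for LmnB1_6, among them FLG-AS1 at 5.69 CPM, ZC3H11B at 4.83 CPM, LYPLAL1-AS1 at 4.63 CPM and WNT5A-AS1 at 4.11 CPM.

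PDZRN3, a ubiquitin ligase with PDZ domains that acts on the kinase MUSK and in planar cell polarity, was the most abundant gene of the set. It stood at 65.1, 55.1 and 58.5 CPM in LmnB1_6, against 0.0481, 0.0482 and 0.0365 CPM in LmnB1_16, 0, 0 and 0.0786 CPM in mCherry_3 and 0.347, 0.633 and 0.411 CPM in mCherry_4. The LmnB1_6 mean of 59.6 ± 5.09 CPM (SD, n = 3) was 335-fold the mean of the other 9 libraries. The gene lies on the minus strand at chr3:73382433-73624940 (GRCh38). Per length it also ranked first of the set, at 25.1 ± 0.81 transcripts per 1000000 (TPM; SD, n = 3) in LmnB1_6. Its paralogue PDZRN4 was listed at 0 in all 12 libraries, and MUSK averaged 0.115 CPM in LmnB1_6, against 5.55 CPM in LmnB1_16, 2.14 CPM in mCherry_3 and 1.78 CPM in mCherry_4.

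Wnt and BMP signalling genes made up 9 of the 66. DRAXIN, a secreted repulsive guidance cue and Wnt antagonist, averaged 6.93 ± 1.40 CPM (SD, n = 3) in LmnB1_6. Its libraries had 6.84, 5.58 and 8.38 CPM in LmnB1_6, against 0 in the 3 LmnB1_16 libraries, 0.0798, 0.0381 and 0 CPM in mCherry_3 and 0.391, 0.198 and 0.0823 CPM in mCherry_4. NOTUM, which removes the lipid from Wnt proteins, was the steadiest of the group, at 4.82, 4.66 and 4.92 CPM in LmnB1_6 and at most 0.197 CPM in any other library. CTHRC1, a secreted protein that favours the planar polarity branch, averaged 3.15 CPM, TCF7L1, a DNA-binding partner of beta-catenin that mostly represses, 1.38 CPM, the ligand WNT11 1.35 CPM, the antagonist FRZB 1.33 CPM and the corepressor TLE2 1.02 CPM in LmnB1_6. The 9 genes, PDZRN3 among them, summed to 79.2 to 93.5 CPM in the libraries of LmnB1_6, against 0.496 to 2.1 CPM in those of the other clones. PDZRN3 alone made up 65.1, 55.1 and 58.5 CPM of the sums in LmnB1_6, so most of each sum was this ligase.

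NOTUM is also a feedback target of beta-catenin signalling, and other feedback genes, chosen here after their values were seen, had higher levels. AXIN2 averaged 155 CPM in LmnB1_6, against 3.04 CPM in LmnB1_16, 2.77 CPM in mCherry_3 and 3.62 CPM in mCherry_4. NKD1 averaged 369 CPM in LmnB1_6, against 0.016 CPM in LmnB1_16, 0 in mCherry_3 and 6.46 CPM in mCherry_4, and it missed the rule through mCherry_4 alone. In a list of 29 planar cell polarity genes and PDZRN and LNX ligases, 8 of the 23 tested genes outside the set were higher in LmnB1_6 than in the mean of the other clones and 7 were lower, at an adjusted p under 0.05 in edgeR's quasi-likelihood test, where 23.1% of all 15388 tested genes were higher and 22.8% lower. The median log2 fold change of those 23 genes was -0.05, against 0.01 over all tested genes. WNT5A, the main planar polarity ligand, rose to 372 ± 23.1 CPM in LmnB1_6, against 47.3, 31.8 and 47.3 CPM in LmnB1_16, mCherry_3 and mCherry_4 (log2 fold change 3.18 ± 0.06 SE, edgeR adjusted p = 6e-16). PRICKLE1, a core polarity protein, had 11.3 ± 1.40 CPM in LmnB1_6, against 0.230, 0.739 and 0.510 CPM (4.66 ± 0.21, edgeR adjusted p = 2.26e-11), while WNT5B fell to 75.3 ± 2.49 CPM in LmnB1_6, against 198, 266 and 332 CPM (-1.78 ± 0.05, edgeR adjusted p = 6.01e-14).

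Genes of the skin barrier and epithelial junctions numbered 6. FLG, which encodes filaggrin, stood at 16.9, 17.2 and 23 CPM in LmnB1_6, against 0, 0 and 0.146 CPM in LmnB1_16, 0.0798, 0.152 and 0 CPM in mCherry_3 and 0.130, 0.633 and 0.370 CPM in mCherry_4. Its neighbour HRNR, encoding the related protein hornerin, had 6.92, 5.73 and 9.33 CPM in LmnB1_6 and at most 0.174 CPM elsewhere. Replicate 3 was the highest LmnB1_6 library for both genes. The groups did not overlap, which the rule largely fixes. CLDN2, a claudin that forms cation pores in tight junctions, averaged 3.62 ± 0.733 CPM, the hair keratin-associated protein KRTAP1-5 3.16 ± 0.769 CPM, the plakin PPL 1.38 ± 0.664 CPM and SFN, the epithelial 14-3-3 protein sigma, 1.12 ± 0.352 CPM (SD, n = 3) in LmnB1_6.

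Most other skin genes were not detected. Of 33 matched genes of the epidermal differentiation complex, the cluster on chromosome 1 that holds FLG and HRNR, 20 were at 0 in every library, including IVL, LORICRIN and SPRR3. Of the 8 tested genes of the complex outside the set, all of the S100 family, 4 were higher in LmnB1_6 (S100A3, S100A4, S100A10 and S100A11) and 1 was lower (S100A16), with a median log2 fold change of 0.27. S100A4 had 5.94 CPM in LmnB1_6, against 1.86 CPM in LmnB1_16, 2.13 CPM in mCherry_3 and 1.31 CPM in mCherry_4 (1.78 ± 0.20, edgeR adjusted p = 1.78e-06). Of 19 keratinocyte markers, 14 stayed under 0.5 CPM in every clone; the defining ones KRT5, KRT14 and TP63 had at most 0.0274 CPM in any clone, and the marker sum was 104 to 108 CPM in LmnB1_6, against 54.1 to 71.3 CPM in LmnB1_16, 78.3 to 85.5 CPM in mCherry_3 and 74.1 to 75.8 CPM in mCherry_4. Among the 5 tested, KRT10, KRT15 and DSC3 were higher in LmnB1_6 and TGM1 and GRHL1 lower. To set beside both lists, 23.1% of all tested genes were higher in LmnB1_6 and 22.8% lower.

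Transcription factors and cofactors numbered 8. SALL4, a zinc finger factor of embryonic stem cells, had 4.32, 6.36 and 7.80 CPM in LmnB1_6, against 0.0481, 0.193 and 0.0731 CPM in LmnB1_16, 0.0399, 0.0381 and 0 CPM in mCherry_3 and 0.217, 0.0395 and 0.206 CPM in mCherry_4. Every LmnB1_6 library lay above every other library, which the rule largely fixes. SOX2, a factor of pluripotent and neural progenitor cells, had 1.38, 1.94 and 3.15 CPM in LmnB1_6, 0.144, 0.482 and 0.183 CPM in LmnB1_16, 0 in the 3 mCherry_3 libraries and 0.0868, 0.0395 and 0 CPM in mCherry_4. LDB2, a cofactor that bridges LIM-domain proteins, averaged 4.81 CPM, ZBED2 3.30 CPM, DACH1, a repressor of the eye and limb network, 2.69 CPM, the homeobox gene DLX6 2.44 CPM, EBF4 1.08 CPM and the POU factor POU3F1 1.01 CPM in LmnB1_6.

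Other pluripotency genes were mostly undetected. Of 21 genes in the SALL and pluripotency list, 11 were at 0 in every library, SALL1 and SALL3 among them, NANOG was at 0 in LmnB1_6 and 17 stayed under 0.5 CPM in every clone. KLF4 was the only called gene of the 3 tested outside the set, at 8.76 CPM in LmnB1_6, against 2.50, 3.16 and 2.38 CPM in LmnB1_16, mCherry_3 and mCherry_4 (1.74 ± 0.13, edgeR adjusted p = 1.79e-08). POU5F1 had 0.426 CPM in LmnB1_6 and 0.243 to 0.283 CPM in the other clones (edgeR adjusted p = 0.293).

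Transcription factors of the eye went in both directions in LmnB1_6. MITF had 0.0420, 0 and 0.136 CPM in LmnB1_6, against 28.4, 33.4 and 30.9 CPM in LmnB1_16, 68.5, 58.1 and 59.5 CPM in mCherry_3 and 46.9, 44.6 and 49.6 CPM in mCherry_4 (edgeR adjusted p = 2.62e-15). OTX2 was at 0 counts in LmnB1_6, against 15.3, 13.3 and 10.7 CPM in the other clones, which is at least 322-fold lower on a floor of 3 counts over the 3 libraries. PAX6 was higher in LmnB1_6, at 71.9 CPM, against 38.1, 37.0 and 37.5 CPM (0.95 ± 0.06, edgeR adjusted p = 2.6e-09), and PAX2, an optic stalk factor that missed the set at 0.991 CPM in LmnB1_6, was at 0 in all 9 other libraries. Of the 12 tested markers of the retinal pigment epithelium, 3 were higher and 7 lower in LmnB1_6, where 23.1% of all tested genes were higher and 22.8% lower.

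Of 10 tested neural crest factors outside the set, 6 were higher and 2 lower (median log2 fold change 0.45), where 23.1% of all tested genes were higher and 22.8% lower in LmnB1_6; they were led by SNAI2 at 40 CPM in LmnB1_6, against 2.55, 1.34 and 2.76 CPM in LmnB1_16, mCherry_3 and mCherry_4. Of 14 tested mesoderm and limb factors, 8 were higher and 3 lower (median 0.52), led by PITX1 at 16.4 CPM in LmnB1_6, against 0.661, 3.29 and 1.47 CPM. Axon guidance genes, a list that also holds the members EFNA2 and UNC5C, went both ways, with 10 higher and 11 lower of 22 tested outside the set (median -0.13). Among them the ephrin receptor EPHB2 had 208 CPM in LmnB1_6, against 85.2, 71.5 and 95.5 CPM (log2 fold change 1.33, edgeR adjusted p = 3.98e-12). The netrin NTN4 had 42.9 CPM in LmnB1_6, against 210, 267 and 245 CPM (log2 fold change -2.47, edgeR adjusted p = 2.88e-15). Of 28 genes for DNA methylation and silencing, 13 were higher and 2 lower (median 0.15), none of the 13 by more than 0.60 on the log2 scale. Of 33 germline and cancer-testis genes, 32 stayed under 0.5 CPM in every clone, and the single tested gene, TDRKH, fell by 1.10 on the log2 scale. SYCP2, a meiotic axis protein and member of the set, reached 1.09 CPM in LmnB1_6.

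Markers of other cell types were looked at in the same way. Neuronal and glial markers summed to 557 to 589 CPM in LmnB1_6, against 330 to 364 CPM in LmnB1_16, 218 to 225 CPM in mCherry_3 and 298 to 327 CPM in mCherry_4, and RBFOX3 and STMN2 were at 0 in LmnB1_6. The tubulin TUBB3 alone had 456 CPM of that sum in LmnB1_6. Of 9 tested, TUBB3, SNAP25 and SYT1 were higher in LmnB1_6, and GAD1, which makes the transmitter GABA, was lower, with 1.33 CPM in LmnB1_6, against 2.11, 3.02 and 1.39 CPM (edgeR adjusted p = 0.0243). None of the 2 leukocyte, 4 endothelial and 3 muscle markers tested was higher in LmnB1_6, and 2, 3 and 1 of them were lower. Of all tested genes, 23.1% were higher and 22.8% lower. CD3E and MYOD1 were at 0 in every clone. In bulk RNA, fewer cells of a type and less RNA per cell cannot be told apart, and the part of these markers in the levels of the 66 genes was not tested.

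Channels and transporters had 3 members. KCNG1, a silent potassium channel subunit that modifies other potassium channels, had 17.8, 15.7 and 21.9 CPM in LmnB1_6, against 0.0481, 0 and 0 CPM in LmnB1_16, 0 in mCherry_3 and 0.0434, 0.0395 and 0.288 CPM in mCherry_4. At 397-fold it had the largest fold of the 61 genes with a fold. CACNA2D3, an auxiliary subunit of voltage-gated calcium channels, averaged 6.15 ± 0.847 CPM and the manganese exporter SLC30A10 2.85 ± 0.295 CPM (SD, n = 3) in LmnB1_6. Of 13 tested voltage-gated channel genes, 2 were higher and 5 lower in LmnB1_6, where 23.1% of all tested genes were higher and 22.8% lower. The lower channel genes included SCN3A, at 0.302 CPM in LmnB1_6, against 26.7, 11.3 and 26.7 CPM in LmnB1_16, mCherry_3 and mCherry_4.

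Receptors numbered 4 and ligands and other secreted proteins 6. GPR55, a receptor for lysophosphatidylinositol, averaged 4.91 CPM, and UNC5C, a netrin receptor, 2.87 CPM in LmnB1_6. ACKR3, a chemokine receptor that scavenges CXCL12, averaged 3.87 CPM in LmnB1_6 and had 1 count over the 9 other libraries, too few for a fold. KISS1, the precursor of kisspeptin, had 4.28, 5.34 and 4.85 CPM in LmnB1_6, against 0 in LmnB1_16, 0.199, 0.0762 and 0.236 CPM in mCherry_3 and 0.174, 0.514 and 0.165 CPM in mCherry_4. Per length KISS1 ranked behind PDZRN3 and KCNG1 alone in LmnB1_6, at 15.4 ± 1.60 TPM (SD, n = 3). It had 0 TPM in LmnB1_16, 0.559 TPM in mCherry_3 and 0.934 TPM in mCherry_4, so it did not meet the rule when applied in TPM. The protease inhibitor CST1 was uneven, at 5.79, 1.80 and 2.65 CPM, while FSTL4 was even, at 1.76, 1.70 and 1.76 CPM in LmnB1_6. EDN2, TNFSF18 and EFNA2, ligands of endothelin, TNF-family and Eph receptors, averaged 2.01, 1.49 and 1.18 CPM.

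Enzymes numbered 10 and genes for the cytoskeleton, adaptors and membrane traffic 8. HSD17B2, which oxidises estradiol and testosterone to weaker steroids, had 12.4, 11.5 and 10.7 CPM in LmnB1_6, 0 in all 6 libraries of LmnB1_16 and mCherry_3, and 0.347, 0.158 and 0.247 CPM in mCherry_4. SPSB4, a substrate adaptor of a cullin ubiquitin ligase, averaged 5.72 CPM, the spectrin linker ANK1 4.23 CPM, RNF128, a ubiquitin ligase of T-cell anergy, 2.90 CPM and GUCY1A2, a subunit of soluble guanylate cyclase, 2.20 CPM. CDKN1C, an imprinted inhibitor of cyclin-dependent kinases, reached 1.95 CPM, GBP5, an interferon-induced GTPase, 2.36 CPM and BCL2L15, a BCL2 relative, 4.87 CPM in LmnB1_6.

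The remaining genes were mostly weakly expressed. In the cytoskeleton and traffic group, SYTL5, which binds Rab GTPases, FRY and SIPA1L2 averaged 2.76, 2.71 and 2.61 CPM in LmnB1_6, and LRFN1, RAB6B and PIK3AP1 1.91, 1.55 and 1.66 CPM. Among the enzymes, ADPRHL1 averaged 3.24 CPM and the sulfotransferase CHST1 2.35 CPM, while PKDCC, TLL2, ENTPD8 and GXYLT2 averaged 1.35, 1.21, 1.14 and 1.04 CPM. PRLR, the prolactin receptor, averaged 1.02 CPM. Of 9 genes placed in no group, ENTREP2 was the highest, at 5.87, 5.78 and 7.4 CPM in LmnB1_6, against 0 in the 3 LmnB1_16 libraries, 0.0399, 0 and 0.0393 CPM in mCherry_3 and 0.217, 0.316 and 0.288 CPM in mCherry_4. BEAN1, SUSD2, FAM124A, C1orf54 and DNAI3 averaged 4.17, 2.14, 1.79, 1.62 and 1.01 CPM in LmnB1_6. Several of these genes sit close to the 1 CPM threshold, and 41 of the 66 averaged 2 CPM or more.

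**Figure D2:**
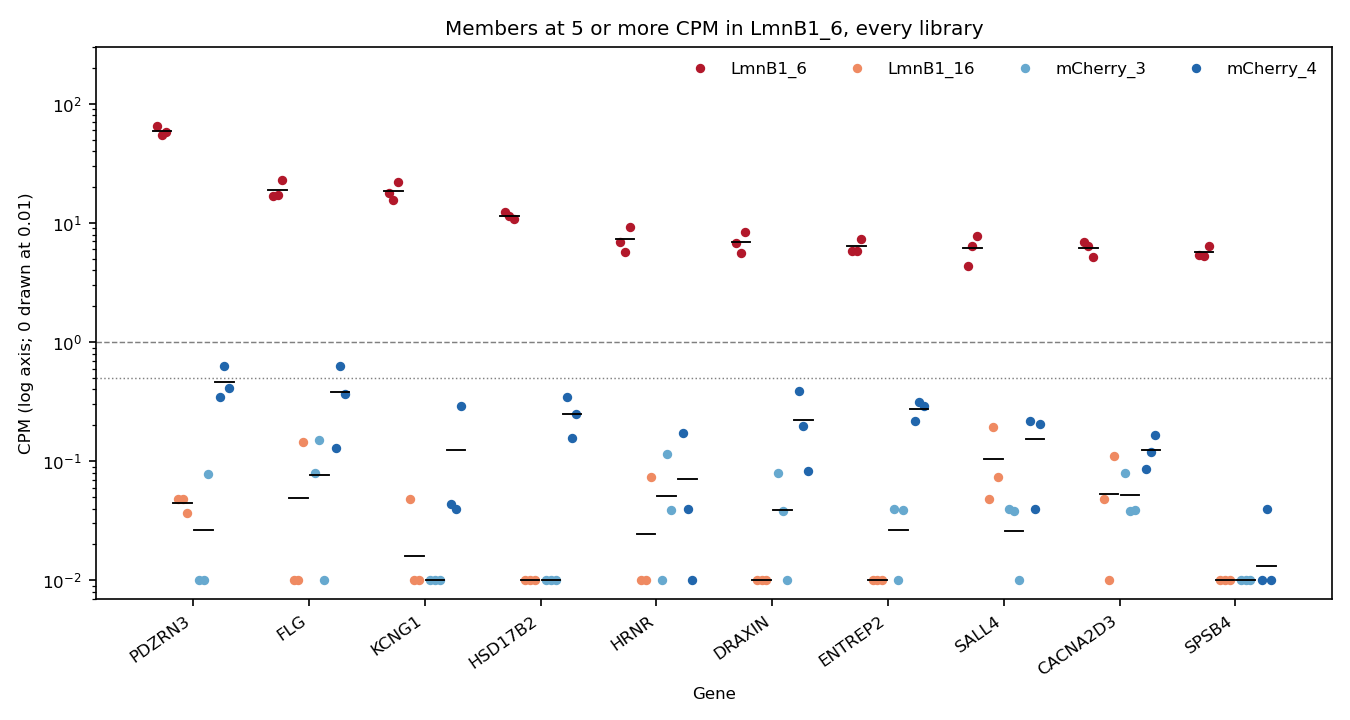
Level in every library (points, log axis, 0 drawn at 0.01 CPM) and clone mean (bar) of 10 of the 12 genes at 5 CPM or more in LmnB1_6; the dashed and dotted lines mark 1 and 0.5 CPM. All LmnB1_6 points lie above 4 CPM and, of the other clones, mCherry_4 has points over 0.5 CPM for PDZRN3 and FLG (0.633 CPM each).

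The coefficient of variation over the 3 libraries had a median of 18.8% for the 66 genes and 7.93% for 7670 other protein-coding genes within the same range of levels; the levels were not matched gene by gene within that range. Among the most even were FSTL4 (2.12%) and NOTUM (2.73%), and the most uneven ENSG00000258064 (88.9%), CST1 (61.7%) and GXYLT2 (52.5%). Replicate 3 was the highest LmnB1_6 library for 36 genes (54.5%), against 50.4% of the other genes in the range. At the edge of the rule, TLE2, DNAI3 and POU3F1 were inside at 1.02, 1.01 and 1.01 CPM in LmnB1_6, and PAX2, KRTAP1-1 and TNFRSF13C outside at 0.991, 0.968 and 0.956 CPM. On the other threshold, C1orf54, PDZRN3 and ADPRHL1 were inside with a highest other clone of 0.477, 0.464 and 0.454 CPM, and ZNF391, PTPRQ and HLF outside at 0.511, 0.514 and 0.516 CPM. PDZRN3 and FLG left the set when mCherry_4 replicate 1 was left out.

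The 3 low clones were then compared with each other, contrasts that the rule did not use, although it held all 3 under 0.5 CPM. Most members passed the filter on low counts through LmnB1_6 alone, so their counts of calls are set beside those of all tested genes as a description. With the 9 libraries of the low clones fitted alone, an alternative chosen after seeing the data, 4 members passed the filter and 0 were called by edgeR in either comparison (0 at an unadjusted p under 0.05), where 33.6% and 37.1% of all tested genes were. In that fit without a filter, 3 of 65 members were called between LmnB1_16 and the mCherry clones (SOX2, GBP5 and KISS1), where 20.1% of all genes were, and 4 between mCherry_4 and mCherry_3 (PDZRN3, HSD17B2, ENTREP2 and RNF128), where 22% of all genes were. The calls given next come from the fit over all 4 clones; those of the other members did not hold in the fit without a filter, and with the filter these genes were not tested. Between LmnB1_16 and the mean of the mCherry clones, 8 of 65 tested members were called, 12.3%, where 33.8% of all tested genes were called in either direction; 4 were higher in LmnB1_16, where 17.2% of all tested genes were, and 4 were lower, where 16.5% were. SOX2 was higher in LmnB1_16, with 18 counts, against 3 in the mCherry clones (edgeR adjusted p = 0.00253), a ratio of pooled CPM of 13 with a 95% counting interval of 3.8 to 68.9. GBP5 had 0.240, 0.241 and 0.219 CPM in LmnB1_16, against 0 in mCherry_3 and 0.0434, 0 and 0.206 CPM in mCherry_4, 5.78-fold higher on pooled counts (edgeR adjusted p = 0.00506). LRFN1 and TNFSF18 were 4.77-fold and 3.67-fold higher (edgeR adjusted p = 0.0297 and 0.0283). KISS1 was at 0 counts in LmnB1_16, against 34 in the mCherry clones, at least 5.23-fold lower on a floor of 3 counts over the clone (edgeR adjusted p = 0.00224), and every mCherry library lay above every LmnB1_16 library.

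The other lower genes were DRAXIN and ENTREP2, both at 0 counts in LmnB1_16 (edgeR adjusted p = 0.035 and 0.0165), and LDB2, with 1 count (0.0275). These levels rest on few reads. Of the members, 4 to 9 were called when a single library was left out, where 4443 to 5291 of all genes were. The count fell to 4 without LmnB1_16 replicate 2; SOX2, GBP5 and KISS1 were called with any library left out, and the other 5 were each lost in at least 1 such fit. The libraries of LmnB1_16 and of the mCherry clones overlapped for DRAXIN, ENTREP2, LDB2 and LRFN1.

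Between the control clones, mCherry_4 over mCherry_3, 15 of 65 tested members were called (23.1%), where 37.4% of all tested genes were called in either direction; 11 were higher in mCherry_4, where 19.9% of all genes were, and 4 were lower, where 17.4% were. The mCherry libraries are those of the preceding comparison. Here too most members passed the filter through LmnB1_6 alone, so the counts are a description. With the low clones fitted alone and no filter, only PDZRN3, HSD17B2, ENTREP2 and RNF128 were called. Of the 12 members at 5 CPM or more in LmnB1_6, 7 were among those higher in mCherry_4. They were PDZRN3, FLG, KCNG1, HSD17B2, DRAXIN, ENTREP2 and SALL4. PDZRN3 had 34 counts in mCherry_4, against 2 in mCherry_3 (edgeR adjusted p = 8.07e-05), a ratio of 18 with a 95% counting interval of 4.6 to 154. HSD17B2 had 18 counts in mCherry_4, against 0 in mCherry_3, at least 6.34-fold higher (edgeR adjusted p = 0.000397). GPR55 was 6.63-fold lower in mCherry_4 (edgeR adjusted p = 0.00824), RNF128 was at 0 there, against 23 counts in mCherry_3 (at least 7.26-fold lower, adjusted p = 0.00795), and BCL2L15 and CST1 were the other lower genes.

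The remaining genes higher in mCherry_4 were CTHRC1, GBP5, GUCY1A2 and RAB6B, with edgeR adjusted p between 0.0163 and 0.0384. The libraries of the 2 control clones overlapped for FLG, SALL4, GBP5 and GUCY1A2. Leaving out single libraries gave 8 to 15 called members, where 4701 to 6227 of all genes were called. The count was 8 without mCherry_3 replicate 1, mCherry_3 replicate 3 or mCherry_4 replicate 3 and 10 without mCherry_3 replicate 2; PDZRN3, HSD17B2, ENTREP2 and RNF128 kept their call with any library left out. With library size alone in place of TMM scaling, an alternative chosen after seeing the data, 10 members were higher and 5 lower, BEAN1 being called and SALL4 not, and over all genes 1833 were higher and 4573 lower, against 3067 higher and 2685 lower with TMM.

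**Figure D3:**
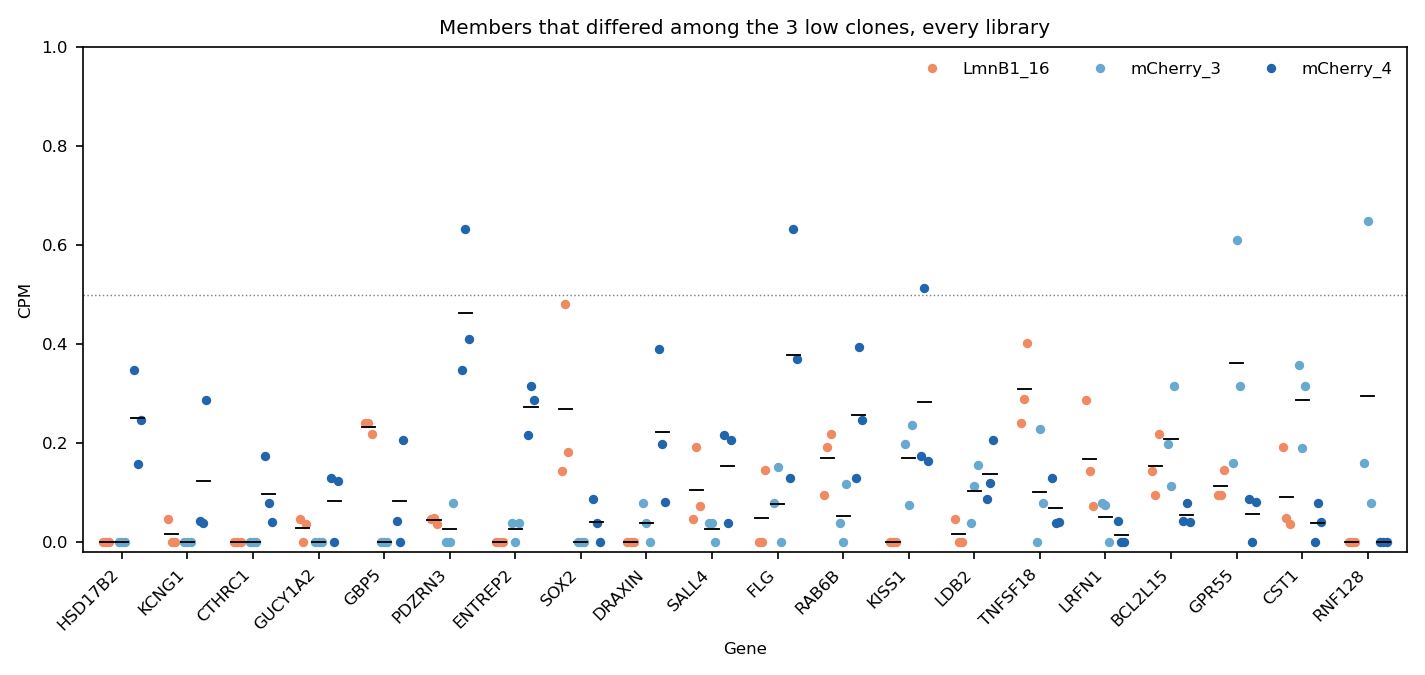
CPM in every library (points) and clone mean (bar) of the 20 genes of the set that were called between LmnB1_16 and the mCherry clones or between mCherry_4 and mCherry_3; the dotted line marks 0.5 CPM. HSD17B2, KCNG1 and CTHRC1, at the left, have no count in mCherry_3, and RNF128, at the right, has counts in mCherry_3 alone of these clones.

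Libraries of the 2 constructs, LmnB1 against mCherry, were compared last. With 6 libraries a construct, 44 of 65 tested members were called higher (67.7%), where 8.58% of all tested genes were called higher and 9.25% lower; the rule chose the members on these values, so the share is a description. PDZRN3, counted among them, averaged 0.0443 CPM in LmnB1_16, against 0.0262 CPM in mCherry_3 and 0.464 CPM in mCherry_4. With a replicate block 21 members were called, where 1648 of all genes were called in either direction, against 2743 without the block. Leaving out 1 library gave 17 to 51 members and 1392 to 3078 genes. Without any single library of LmnB1_6 or mCherry_3 the counts were 17 to 23 members and 1392 to 1828 genes. With counts summed per clone, 2 clones against 2, 0 members and 0 of the 15388 genes were called by edgeR, while DESeq2 on the 12 libraries called 3741 genes; with the sums 642 genes had an unadjusted p under 0.05 and the smallest adjusted p was 0.261.

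On the chromosomes, 11 of the 66 genes (16.7%) lay within 1 Mb of another gene of the set, and 7.49% of the other 19841 protein-coding genes lay within 1 Mb of a member. They included the pairs HRNR and FLG, KCNG1 and SALL4, GXYLT2 and PDZRN3, RNF128 and CLDN2, and TLL2 and PIK3AP1. Chromosome 1 held 15 of the genes, and chromosomes 6, 14, 18 and 21 held none. By share of their protein-coding genes, chromosomes 13 (1.25%) and 20 (0.924%) held the most. The median log2 fold change of the other tested genes, by chromosome, lay between -0.06 and 0.15.

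HRNR and FLG lie 77982 bases apart, and other protein-coding genes next to them were not on. RPTN, TCHHL1 and CRNN were at 0 in every library, and FLG2, next to FLG, had 0.111 CPM in LmnB1_6 and 0 elsewhere. FLG-AS1, which overlaps 5.52% of the exonic bases of FLG on the other strand, had 5.69 CPM in LmnB1_6, against 0, 0 and 0.0282 CPM in LmnB1_16, mCherry_3 and mCherry_4. Whether counting used strand is not stated, so reads from the exonic bases that the 2 genes share cannot be credited to either strand.

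Between KCNG1 and SALL4, which are 759202 bases apart on chromosome 20, the protein-coding genes NFATC2 and ATP9A were also higher in LmnB1_6. NFATC2, a calcium-regulated factor, had 9.31 CPM in LmnB1_6, against 1.68, 0.275 and 0.873 CPM in LmnB1_16, mCherry_3 and mCherry_4 (3.66 ± 0.16, edgeR adjusted p = 1.87e-11). The flippase ATP9A had 88.2 CPM in LmnB1_6, against 46.4, 50 and 35.6 CPM (1.03, edgeR adjusted p = 3.21e-10). Outside the pair, MOCS3 had 13.9 CPM in LmnB1_6, against 14.1, 15.7 and 14.9 CPM (edgeR adjusted p = 0.4), and ZFP64 had 22.3 CPM, against 20.7, 19.4 and 17.9 CPM (0.22, edgeR adjusted p = 0.0226). Farther out, PTPN1, 418415 bases from KCNG1, rose to 235 CPM in LmnB1_6, against 124, 148 and 122 CPM (0.85 ± 0.05, edgeR adjusted p = 3.02e-10).

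Genes around other members, some of them named after their values were seen, were mixed. CACNA2D3 lies 391158 bases from WNT5A, with LRTM1, at 0 in every library, inside it; on its other side CHDH fell to 0.0388 CPM in LmnB1_6, against 1.39, 0.430 and 0.261 CPM (edgeR adjusted p = 6.22e-05). ENTREP2 lies 1939 bases from APBA2, which had 20 CPM in LmnB1_6, 6.96 CPM in LmnB1_16, 0 in mCherry_3 and 0.269 CPM in mCherry_4. PPP4R2, between GXYLT2 and PDZRN3, had 85.7 CPM in LmnB1_6, against 79.6, 81.0 and 73.3 CPM (0.15), and TBC1D8B, between RNF128 and CLDN2, had 18 CPM, against 16.3, 18.9 and 19.4 CPM (edgeR adjusted p = 0.984). MAD2L2, 79 bases from DRAXIN, had 60.4 CPM in LmnB1_6, against 40, 40.1 and 36.1 CPM. AGTRAP, on the other side and 10227 bases away, was lower, with 21.7 CPM in LmnB1_6, against 26.7, 35.1 and 24.8 CPM (log2 fold change -0.39, edgeR adjusted p = 0.000419). TJP1, 128644 bases from ENTREP2, had 251 CPM in LmnB1_6, against 151, 149 and 150 CPM (edgeR adjusted p = 7.95e-08). MPHOSPH6, 49264 bases from HSD17B2, had 33.6 CPM in LmnB1_6, against 17.2, 15.2 and 17.2 CPM (edgeR adjusted p = 1.61e-09). SDR42E1, on the other side of HSD17B2, and CNTN3, 637628 bases from PDZRN3, were at 0 in every library. Over all tested protein-coding genes within 500 kb of a member, 168 of 544 (30.9%) were higher in LmnB1_6 and 101 (18.6%) lower, where 23.1% and 22.8% of all tested genes were; 37 (6.8%) were called and at least 2-fold higher, against 4.35% of the other tested protein-coding genes.

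**Figure D4:**
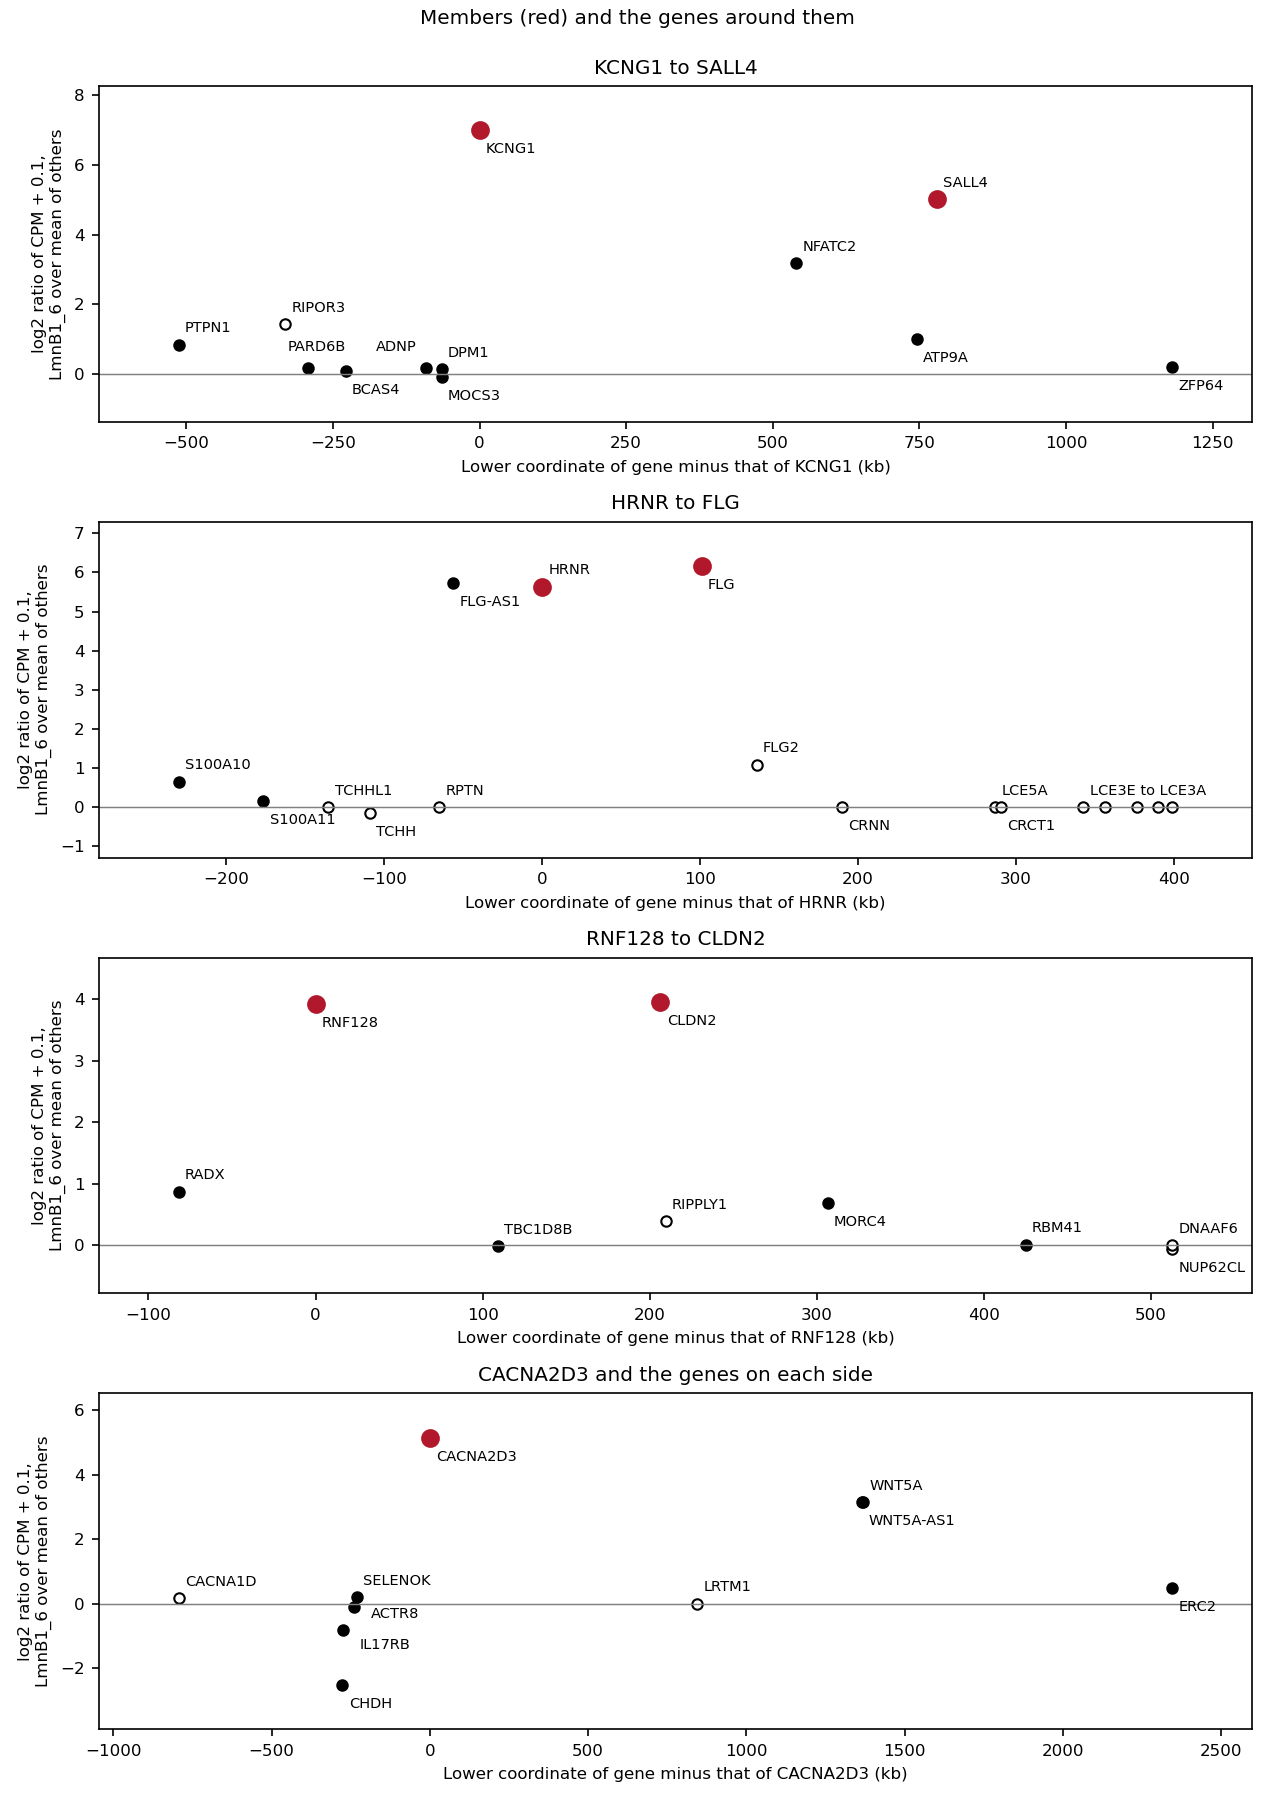
Log2 ratio of mean CPM + 0.1 in LmnB1_6 over the mean of the other clones (vertical axis). Members are red and the genes around them black, open where every clone is under 0.5 CPM. Genes are drawn up to 500 kb on each side for KCNG1 to SALL4 and CACNA2D3, and over a shorter span for the others. The horizontal axis is the distance (kb) of each gene's start from that of the first member. The start is the lower coordinate on the plus strand and the higher one on the minus strand, although the axis title names the lower coordinate. NFATC2 and ATP9A lie between KCNG1 and SALL4 and above 0, whereas TBC1D8B, between RNF128 and CLDN2, lies at 0.

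The CpG content of the gene starts was read from sequence. RefSeq promoter windows (GRCh38.p14, 250 bases before to 50 bases after the start) were matched for 45 of the 66 genes. Observed over expected CpG was at least 0.6 in 27 of them (60%), against 65.8% of 15842 protein-coding windows and 85.7% of those of other genes at 1 CPM or more in LmnB1_6. It was under 0.3 in 14 (31.1%), against 19.6% and 5.45%, and between these bounds in 4, EDN2, KISS1, PRLR and ENTPD8. No test was made of these shares. The windows of PDZRN3, DRAXIN and SOX2 are shown as examples at 0.6 or more, with each CG in capitals.
PDZRN3, chr3:73624892-73625191, minus strand: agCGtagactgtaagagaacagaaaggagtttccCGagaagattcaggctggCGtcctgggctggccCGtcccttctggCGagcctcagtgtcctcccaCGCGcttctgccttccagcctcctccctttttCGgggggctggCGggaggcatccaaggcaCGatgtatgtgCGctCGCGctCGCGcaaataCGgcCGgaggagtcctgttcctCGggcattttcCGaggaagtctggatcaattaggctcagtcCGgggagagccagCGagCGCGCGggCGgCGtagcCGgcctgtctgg
DRAXIN, chr1:11691460-11691759, plus strand: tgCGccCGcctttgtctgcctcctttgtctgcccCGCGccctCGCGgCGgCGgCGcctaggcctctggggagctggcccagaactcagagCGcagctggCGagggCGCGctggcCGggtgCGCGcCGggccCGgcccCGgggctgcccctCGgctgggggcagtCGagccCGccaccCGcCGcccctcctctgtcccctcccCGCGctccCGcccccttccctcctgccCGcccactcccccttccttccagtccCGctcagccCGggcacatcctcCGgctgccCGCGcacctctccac
SOX2, chr3:181711675-181711974, plus strand: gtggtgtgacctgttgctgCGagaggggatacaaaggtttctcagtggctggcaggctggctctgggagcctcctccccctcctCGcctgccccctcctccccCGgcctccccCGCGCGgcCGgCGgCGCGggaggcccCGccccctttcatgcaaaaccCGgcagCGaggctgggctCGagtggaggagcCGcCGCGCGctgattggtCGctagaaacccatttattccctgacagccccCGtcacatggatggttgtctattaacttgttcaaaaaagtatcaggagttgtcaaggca

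Windows under 0.3 included those of FLG, HRNR, CLDN2, RNF128, ZBED2 and SYTL5, each with an observed over expected CpG under 0.1. Windows were searched on both strands for TATAAA, the TATA box core, and TGANTCA, where N is any base. TGANTCA reads alike on both strands. It takes in the core bound by AP-1 factors, which has C or G at N, but also runs with A or T there. TATAAA was found in 6 of the 45 windows (13.3%), against 9.63% of all protein-coding windows and 4.98% of those of other genes at 1 CPM or more in LmnB1_6. TGANTCA was found in 7 (15.6%), against 5.75% and 4.14%; the 7 were FLG, CLDN2, SLC30A10, SYTL5, SFN, GXYLT2 and PRLR. The match is TGAATCA in FLG and TGATTCA in CLDN2, so neither has the C or G of the AP-1 core. How many of the other matches have it was not counted. A match is a run of letters and no measure of binding. The windows of the neighbours HRNR and FLG and of CLDN2 are shown with these matches in capitals.
FLG, chr1:152325190-152325489, minus strand: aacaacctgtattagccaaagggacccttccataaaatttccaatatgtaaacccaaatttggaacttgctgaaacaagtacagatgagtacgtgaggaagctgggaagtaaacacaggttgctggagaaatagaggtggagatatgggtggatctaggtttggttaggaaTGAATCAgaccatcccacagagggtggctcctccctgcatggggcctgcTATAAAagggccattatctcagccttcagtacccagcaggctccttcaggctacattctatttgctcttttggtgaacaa
HRNR, chr1:152224144-152224443, minus strand: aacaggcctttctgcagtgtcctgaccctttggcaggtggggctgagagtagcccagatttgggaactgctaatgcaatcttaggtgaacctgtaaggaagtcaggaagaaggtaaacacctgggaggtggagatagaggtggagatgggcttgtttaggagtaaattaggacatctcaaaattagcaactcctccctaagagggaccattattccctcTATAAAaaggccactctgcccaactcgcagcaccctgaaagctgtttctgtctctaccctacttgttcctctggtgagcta
CLDN2, chrX:106899914-106900213, plus strand: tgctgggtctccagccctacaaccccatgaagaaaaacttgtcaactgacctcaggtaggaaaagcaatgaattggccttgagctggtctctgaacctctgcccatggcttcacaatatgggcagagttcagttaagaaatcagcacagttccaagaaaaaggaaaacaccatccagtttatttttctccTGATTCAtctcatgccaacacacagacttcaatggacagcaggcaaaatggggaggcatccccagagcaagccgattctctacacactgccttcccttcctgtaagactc

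**Figure D5:**
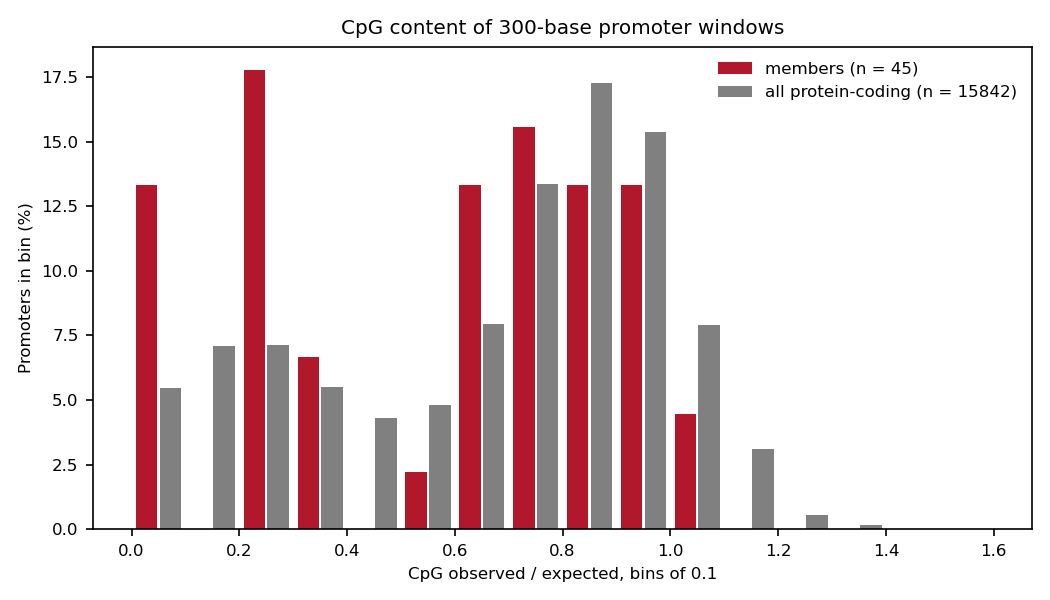
Share of promoter windows (vertical axis, %) by observed over expected CpG in bins of 0.1 (horizontal axis) for the 45 matched genes of the set and for 15842 protein-coding genes. Under 0.3 the set has 31.1% of its windows, against 19.6% of all protein-coding windows.

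Some members share exons with other genes, which limits what their counts can be credited to. Of the 66, 43 overlap no exon of another gene, 5 overlap on the same strand and 19 on the opposite strand, FRY on both. ENSG00000258064, whose exons lie entirely within those of THAP2 and TMEM19, had 1.80, 1.37 and 0 CPM in LmnB1_6, and ENSG00000284874, 83.6% of which overlaps GP1BB and SEPT5, averaged 4.19 CPM. APH1A covers 36.3% of the exonic bases of C1orf54 on the opposite strand. For these genes the estimated counts depend on how the quantifier split reads among the overlapping transcripts.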

How the data were processed

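RNA of 12 libraries, 3 for each of 4 hTERT RPE-1 clones, was measured by mRNA-seq. The authors' deposited gene tables hold estimated counts and TPM, transcripts per 1000000, with transcript lengths, in the output format of Salmon per the file headers. Per the submitters' processing notes, STAR, Salmon and DESeq2 were used with GRCh38 (hg38). The roles and versions of these tools, and the annotation release, are not stated in the labels or files. Lengths and TPM came as deposited and were used per gene.

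CPM values were computed from the library totals of the estimated counts. The estimated counts were then rounded and tested with edgeR 4.0.16 (quasi-likelihood, TMM scaling, 1 model over the 4 clones, another over the 2 constructs) in R 4.3.3, after filterByExpr with a minimum count of 10 and a minimum total of 15, which kept 15388 genes. An adjusted p (Benjamini-Hochberg) under 0.05 was called. The scripts were tested on simulated data. Totals of 20.6 to 29.5 M counts mean that a gene at 0.5 CPM rests on 10.3 to 14.7 counts a library. Folds against a clone at 0 used a floor of 3 counts, and ratios with 1 to 3 counts on a side have exact 95% intervals; both cover counting error only.

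Gene types came from GENCODE 29 (58440 of 60708 genes matched) and promoter windows from RefSeq (GRCh38.p14). The genes named are the 25 most abundant members, those near another member, nearest a threshold, called between the low clones or with extreme spread, up to 4 called genes of each list, and the genes next to the 10 most abundant members. The text departs from this rule: 5 called genes are named for 2 of the lists, and some neighbours of other members and members given by level alone are named after their values were seen. The members and lists were chosen with earlier results of these data known. Other scalings, filters, DESeq2 1.42.0, a replicate block, sums per clone, the 3 low clones fitted alone and single libraries left out were tried. Python 3.11.15, pandas 2.3.3 and matplotlib 3.10.9 made the summaries and figures. A few items, 2 members among them, are not reported here by name and are left out of the figures; the counts include them.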

Additional observations from a re-analysis of the deposited data

How the results depend on the processing

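The set held 66 genes by its rule, 41 at 2 or more CPM in LmnB1_6, 39 under 0.25 CPM in the other clones, 43 with the thresholds met in every library, 67 with TMM-scaled CPM, 60 in TPM (37 of them among the 66) and 64 to 69 with single libraries left out. The comparison of the constructs' libraries gave 2743 called genes, 1648 with a replicate block and 0 with counts summed per clone, an alternative with fewer samples. Without single libraries it gave 1392 to 3078: 1567, 1527 and 1828 without LmnB1_6 replicate 1, 2 and 3, and 1493, 1495 and 1392 without mCherry_3 replicate 1, 2 and 3; the cause was not tested. Equal replicate numbers were not taken as a pairing, which required a correlation of deviations over 0.1 in every pair of same-numbered libraries: 3 of 18 pairs exceeded it, all of them replicate 3 among LmnB1_6, LmnB1_16 and mCherry_4 (0.119 to 0.181), and the lowest was -0.0541. With the replicate block 8 members were called between LmnB1_16 and the mCherry clones, as without it, and 12 in place of 15 between mCherry_4 and mCherry_3. Without a filter on low counts, these 2 comparisons called 10 and 16 members, and DESeq2 called 8 and 14. Over all genes, the 2 comparisons called 5195 and 5752 in the main fit and 5336 and 5855 with the block. They called 5311 and 5823 without a filter and 5316 and 5812 with DESeq2. The 8 and 15 members called between the low clones and 157 tested list genes outside the set were followed through the alternative runs. No call among them reversed direction. Named genes outside these, such as NFATC2 and TJP1, were not followed. For LmnB1_16 against mCherry, 5 of 8 genes lost their call in at least 1 alternative, and for mCherry_4 against mCherry_3, 11 of 15. For LmnB1_6 against the other clones, 15 of the 157 genes lost a call and 14 gained one. The 157 include genes not called in the main fit, so this share is not set beside the others. Low counts limit every statement on levels in the 3 low clones.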
